A study of Mus musculus with 9 samples.

Results

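The genes described here encode the proteins of the cytosolic ribosome of the mouse. They were taken by symbol, as protein-coding genes named Rpl or Rps followed by a digit together with Rplp0, Rplp1, Rplp2 and Rpsa, and without the S6 kinases, binding proteins and pseudogenes that share these letters. This gave 85 genes among the 46078 listed for cultured cells, with 52 of the large and 33 of the small subunit. The GAS libraries list 38293 genes and hold 84 of the 85, since Rpl24 is not listed there and was not analysed here in GAS. RNA sequencing covered mouse gastrocnemius muscle (GAS, 3 libraries), primary myoblasts (MB, 2 libraries), myotubes (MT, 2 libraries) and MB given 10 mM sodium-L-lactate (2 libraries), all labelled with the strain C57BL/6. GAS came from adult female mice, given as C57Bl6/J in the study's methods, and is labelled control. MB are dividing muscle precursor cells grown on Matrigel in serum-rich medium with basic fibroblast growth factor, MT are the fused cells they form after 3 days in low-serum differentiation medium, and the MB and MT controls received PBS, the solvent of the lactate. The comparisons ask how the genes changed from MB to MT, whether lactate moved MB toward MT, and how both stand to adult muscle.

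A ribosome joins a small subunit, which reads the mRNA, and a large subunit, which forms the peptide bond, and most of these proteins are present once in each ribosome, so cells make them in matched amounts. Their mRNAs are among the most abundant in growing cells, and many begin at a C followed by a stretch of pyrimidines, the 5′ terminal oligopyrimidine motif, through which growth signals control their translation. Adult skeletal muscle is known for a substitution in the large subunit, in which Rpl3l takes the place of the general form Rpl3, a protein that lies close to the peptidyl transferase centre.

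The bases at the annotated start are shown first because this motif is shared by these genes and was not used to choose them. RefSeq start sites of build GRCm38.p6 were at hand for 65 of the 85 genes, and 14 of these 65 (21.5%) had a start at a C opening a run of at least 5 pyrimidines, against 3.01% of all 27025 genes in the table. Each line gives 10 bases before and 20 bases from the annotated start, 5′ to 3′ on the gene's strand, with the pyrimidine run in capitals. Rpl15, Rpl35, Rps10, Rps6 and Rps18 have the longest runs. Rpl28 and Rpl35a have runs and were called lower in MT by the test given below. Rpl12, Rps12 and Rpsa, called lower as well, have a run of 0 and are not shown. Rpl3l, Rpl7l1 and Rpl22l1 are paralogues with no such run at the start shown, while the paralogue Rps27rt has a run of 6.
Rpl15 (chr14:18270967-18270996, minus strand): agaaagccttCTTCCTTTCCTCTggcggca
Rpl35 (chr2:39005112-39005141, minus strand): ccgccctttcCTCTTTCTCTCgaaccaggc
Rps10 (chr17:27635225-27635254, minus strand): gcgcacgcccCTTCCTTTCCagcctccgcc
Rps18 (chr17:33955646-33955675, minus strand): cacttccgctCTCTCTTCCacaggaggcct
Rps6 (chr4:86857348-86857377, minus strand): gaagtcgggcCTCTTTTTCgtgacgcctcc
Rpl28 (chr7:4792955-4792984, plus strand): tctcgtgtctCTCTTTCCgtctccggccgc
Rpl35a (chr16:33056472-33056501, plus strand): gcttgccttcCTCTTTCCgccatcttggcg
Rpl3l (chr17:24727816-24727845, plus strand): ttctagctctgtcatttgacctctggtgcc
Rpl7l1 (chr17:46782637-46782666, minus strand): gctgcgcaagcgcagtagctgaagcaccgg
Rpl22l1 (chr3:28805498-28805527, plus strand): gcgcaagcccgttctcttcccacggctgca

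Annotated starts can lie some bases away from the start in use, which was not measured here. In the Rpl22l1 window a pyrimidine stretch follows a few bases after the annotated start. Within 25 bases on either side of the start, 33 of the 65 genes (50.8%) held a pyrimidine run of at least 8 bases, against 22.3% of all genes in the table. Rpl3 is among the genes without an entry. A match of these letters describes the sequence and does not show that the motif acts in these cells.

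The cultured libraries held 5198247 to 10839516 counts and the GAS libraries 19307793 to 19941574, so that a count of 3, taken as the lower limit, equals at most 0.577 CPM, a count scaled to the size of its library. The labels were checked with marker genes. Myog, Mymk, Ckm, Acta1 and Myh3 were all called higher in MT than in MB. The 4 myoblast genes Pax7, Myf5, Myod1 and Mki67 all had lower levels in MT, and 1 of them, Pax7, was called lower. GAS held the adult fast-fiber genes Myh4, Actn3 and Pvalb. Of these 3, 2 were tested in MT against MB and both were called higher, so their presence alone does not set GAS apart from MT. Some libraries stood apart. Ribosomal RNA genes and Gm26917 took 11.0% of counts in MB replicate 1 and 15.6% in lactate-treated MB replicate 1, and 0.657% or less in every other library. Of 10 markers of fibroblasts, endothelium, leukocytes, adipocytes and Schwann cells, 9 had counts in MT replicate 1 and 3 in MT replicate 2. Their sums were 5785 and 894 counts, most of them on the fibroblast gene Dcn, and 301 and 27 without Dcn. The same markers summed to between 9 and 18 counts in the MB libraries with and without lactate, and to between 7556 and 9271 in GAS.

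The ribosomal protein genes took a larger share of the counts in MB than in MT or GAS. The share was 7.45% and 5.50% in the MB libraries, with a mean of 6.48% ± 1.38 (SD, n = 2), and 1.92% and 3.20% in MT, with a mean of 2.56% ± 0.909 (SD, n = 2). Both MT values lay below both MB values. In GAS the share was 1.53%, 1.67% and 1.53%, or 1.58% ± 0.0784 (SD, n = 3), below every cultured library. The lactate-treated MB held 8.27% and 4.98%, on either side of the controls, with a mean of 6.62% ± 2.33 (SD, n = 2). The exact two-sided permutation test gave p = 0.333 for MT against MB, the smallest p that 2 against 2 libraries can give, and p = 1.0 for lactate against MB. Counting error was small beside the spread between libraries, with 95% Wilson intervals of 7.44% to 7.47% in MB replicate 1 and 1.91% to 1.92% in MT replicate 1.

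**Figure D1:**
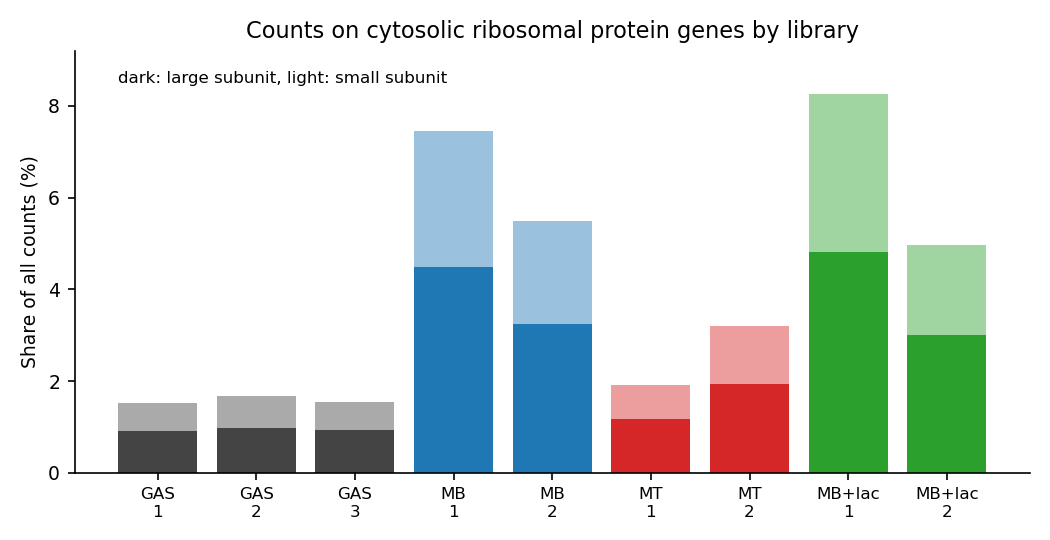
Share of all counts (%) on the 85 genes in each of the 9 libraries (MB+lac is lactate-treated MB), with large-subunit genes in dark and small-subunit genes in light colour. The MB bars reach 7.45% and 5.50%, the MT bars 1.92% and 3.20%, and the GAS bars 1.53% to 1.67%.

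Both subunits made up this share in nearly the same proportion throughout. Large-subunit genes took 3.87% ± 0.876 (SD, n = 2) of counts in MB and small-subunit genes 2.61% ± 0.506, and in MT they took 1.55% ± 0.548 and 1.00% ± 0.361. The ratio of large-subunit to small-subunit counts was 1.48 ± 0.0493 in MB, 1.55 ± 0.0101 in MT, 1.45 ± 0.0812 in lactate-treated MB (SD, n = 2 each) and 1.48 ± 0.0371 in GAS (SD, n = 3). Processed pseudogenes with the suffix -ps, of which 300 were listed, added 0.114% in MB, 0.0439% in MT and 0.0497% in GAS. In bulk RNA, fewer cells with a high level and less of this mRNA in each cell cannot be told apart. GAS libraries were made with another protocol and counted on another gene list, so GAS was described beside the cultured cells and not tested against them.

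From MB to MT the ribosomal protein mRNAs were lower as a group. With edgeR's quasi-likelihood test, 81 of the 85 genes passed the filter on low counts, and the log2 fold change (log2FC) of MT over MB was below 0 for all 81 tested, against 47.7% of the 12921 genes tested overall. Their median log2FC was -1.52, a 2.86-fold lower level, with quartiles of -1.78 and -1.15, beside a median of 0.07 over all genes tested. For 80 of the 81 both MT libraries lay below both MB libraries in CPM, scaled with the TMM method, and 29.2% of all genes tested did so. An unadjusted p under 0.05 was reached by 61 of them in the lower direction, against 14.3% of all genes. After Benjamini-Hochberg adjustment over all genes, and with an absolute log2FC over 0.5, 9 were called lower and 0 higher, where 6.86% of all genes were called lower and 11% higher. No member was higher at an unadjusted p under 0.05 either, and DESeq2's Wald test called 50 lower and 0 higher, where it called 10% of all genes lower.

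The count of calls moved with single libraries, while the median stayed below 0. Leaving out a library leaves its group with a single library, and the other group then gives all the spread. Without MT replicate 1, 0 genes were called lower, against 2.06% of all genes, and the median log2FC was -1.11. Without MT replicate 2 there were 42, against 4.26% of all genes, with a median of -2.28. Without MB replicate 1 there were 4, against 5.93%, with a median of -1.18, and without MB replicate 2 there were 50, against 8.34%, with a median of -1.92. In every pairing of an MT with an MB library the median ratio over the 81 genes was below 0. It was -2.43 for MT replicate 1 over MB replicate 1, -1.85 for MT replicate 1 over MB replicate 2, -1.31 for MT replicate 2 over MB replicate 1 and -0.67 for MT replicate 2 over MB replicate 2, on the log2 scale. The MT replicates themselves differed by a median of -1.20 (replicate 1 over replicate 2) and the MB replicates by 0.58. MT replicate 1 was thus the library with the lowest levels, and it was also the one with the most counts on markers of other cell types, whose part in the result was not tested. Without it, all 81 genes kept a log2FC below 0. The library with the most ribosomal RNA counts among these 4, MB replicate 1, had the highest levels. With ribosomal RNA genes and Gm26917 left out of all libraries the median was -1.54. In that setting 14 of the ribosomal protein genes were called lower, against 7.09% of all genes.

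**Figure D2:**
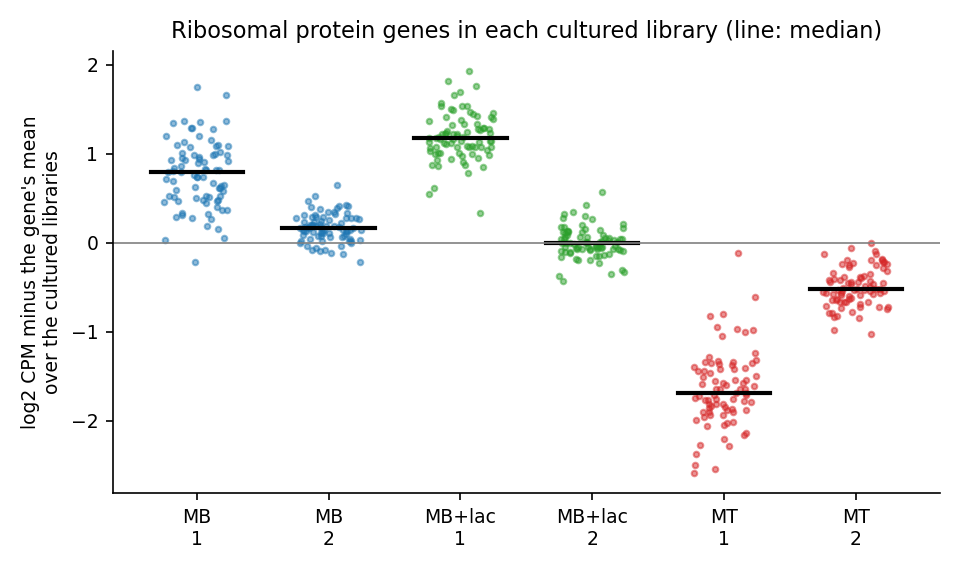
Each point is one of the 81 tested genes in a cultured library, as log2 CPM minus that gene's mean over the 6 cultured libraries, and the black line is the median. MT libraries lie lowest and MT replicate 1 below MT replicate 2, while replicate 1 of lactate-treated MB lies above its replicate 2 and MB replicate 1 above MB replicate 2.

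Among the 9 called genes, Rpsa had the log2FC furthest below 0. All 81 tested genes had a log2FC below 0, so the calls mark a threshold and do not set off a separate group. Rpsa, a small-subunit protein also known as the laminin receptor, was at 2442 and 687 CPM in MB and at 125 and 413 CPM in MT. The groups did not overlap, but the MB libraries differed from each other by more than the lower of them differed from the higher MT library. Its log2FC was -2.63 ± 0.79 (SE), a 6.19-fold lower level, with an adjusted p of 0.0431 from edgeR's quasi-likelihood test. With single libraries left out, the log2FC of Rpsa ranged from -3.79 without MT replicate 2 to -1.41 without MB replicate 1, and the call was lost without MB replicate 1 (edgeR adjusted p = 0.123) and without MT replicate 1 (0.247).

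Rps12, of the small subunit, stood at 444 and 154 CPM in MB and at 24.9 and 88.6 CPM in MT, and its log2FC was -2.48 ± 0.69 (SE, adjusted p = 0.0320 by edgeR). Rpl12, which lies at the base of the lateral stalk, stood at 913 and 369 CPM in MB and at 89.0 and 199 CPM in MT, with a log2FC of -2.22 ± 0.62 (SE, adjusted p = 0.0329 by edgeR). For both genes MB replicate 1 was highest and MT replicate 1 lowest, as for the group.

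Rps2, at the entry channel for mRNA, stood at 2595 and 1335 CPM in MB and at 336 and 616 CPM in MT (log2FC -2.09 ± 0.64, SE, edgeR adjusted p = 0.0459). Rpl28 stood at 632 and 269 CPM in MB and at 78.3 and 159 CPM in MT (log2FC -1.98 ± 0.58, SE, edgeR adjusted p = 0.0399). The other called genes included Rpl19, Rps15 and Rpl35a, with log2FC between -1.98 and -1.76, and of the 9 calls 4 were of the large and 5 of the small subunit.

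A large change did not always make a call. Rps10, Rpl8 and Rpl3 had lower log2FC values than Rps2 and were not called. Rpl3 had a log2FC of -2.13 ± 0.67 (SE) and an adjusted p of 0.0506 with edgeR, and Rps6, the small-subunit protein phosphorylated by S6 kinases, had -1.91 ± 0.60 (SE) with 0.0509. The SD of the log2FC over the 81 genes was 0.43, and the median SE of a single gene was 0.57. This SE includes differences between libraries that the genes share, so it does not measure the error of a difference between genes. Over the 81 genes, the MT over MB log2 ratio of replicate 1 had a Pearson r of 0.153 with that of replicate 2. With the replicate numbers crossed, r was 0.455, so the order of single genes is not firm. The stalk proteins, which recruit elongation factors, had log2FC values of -1.66 for Rplp0, -2.08 for Rplp1 and -1.86 for Rplp2. Rpl13a and Rpl4 stood at -1.47 and -1.28, Rps14 at -1.50, Rpl41, which encodes the shortest of these proteins, at -1.66, and Rps27a, made as a fusion with ubiquitin, at -1.13. All 8 missed the adjusted threshold with edgeR, and their MT libraries all lay below their MB libraries.

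**Figure D3:**
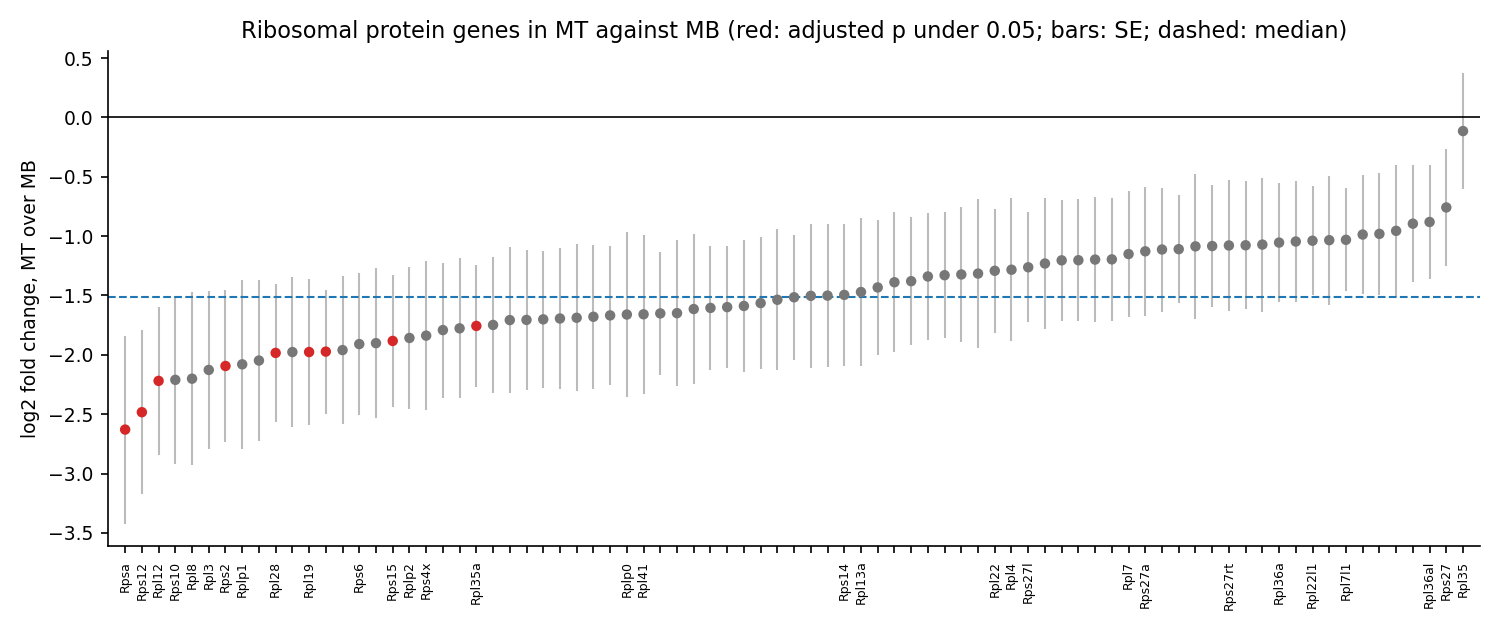
Log2 fold change of MT over MB with its SE for the 81 tested genes, ordered by value, with the 9 called genes in red, some genes labelled by name, the median of -1.52 as a dashed line and 0 as a solid line. Every point lies below 0, from -2.63 for Rpsa to -0.12 for Rpl35.

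Rpl35 stood apart from the others. It was at 571 and 431 CPM in MB and at 463 and 471 CPM in MT, and it was the single tested gene whose groups overlapped. Its log2FC was -0.12 ± 0.49 (SE, edgeR adjusted p = 0.898), and it turned to values just above 0 without MB replicate 1 (0.072) or with a stricter count filter (0.0012). Exons of Arpc5l and Wdr38 overlap 68.3% of its mRNA in the annotation. The MB and MT libraries do not mark strand, so reads of these genes and of Rpl35 cannot be told apart in the overlap. The next gene, Rps27 of the small subunit, had a log2FC of -0.76 ± 0.49 (SE) and lay at 672 and 550 CPM in MB and at 293 and 441 CPM in MT.

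Genes with and without the pyrimidine run at the start had similar medians. The median log2FC was -1.45 over the 14 tested genes with the run and -1.50 over the 47 without it, with ranges of -2.21 to -0.12 and -2.63 to -0.88. Rpl35, shown above with a run of 11, and Rps10, with a run of 10, stood far apart, at -0.12 and -2.21, and 91.6% of the Rps10 mRNA is overlapped by another annotated gene. Most of the mRNA sequence is shared with other annotated transcripts. For the median gene, 60.0% of its 50-base stretches also occur in transcripts of other genes, and 54 of the 85 genes share more than 50% of them. Across the 81 genes this percentage had a Pearson r of -0.0227 with the log2FC, a description of genes measured in the same libraries. Of the pseudogenes with the suffix -ps, 56 were tested, with a median log2FC of -1.59. Of these 56, 11 were called lower, against 6.86% of all genes. Their part in the shared stretches was not counted.

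Ribosomal proteins outside the naming rule lay in the same range. Rack1, a scaffold protein of the small subunit, was called lower, from 1855 and 956 CPM in MB to 224 and 423 CPM in MT (log2FC -2.17 ± 0.62, SE, edgeR adjusted p = 0.0345). Fau, made as a fusion to a ubiquitin-like protein, had a log2FC of -1.25 ± 0.55 (SE) and was not called.

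Of 14 other mRNAs known for the oligopyrimidine motif, 6 were called lower in MT and 0 higher, against 6.86% and 11% of all genes. The log2FC was below 0 for all 14, against 47.7% of all genes, with a median of -1.76. Hnrnpa1, an RNA-binding protein, fell by 2.92 on the log2 scale, the nucleolar protein Npm1 by 2.40, the poly(A)-binding protein Pabpc1 by 1.98, the histone chaperone Nap1l1 by 1.92 and Eef1d, a subunit of the elongation factor 1 complex, by 1.84. The elongation factors Eef2 (log2FC -2.03 ± 0.75, SE) and Eef1a1 (-1.44 ± 0.82, SE) did not pass the test. Of 77 tested genes for mitochondrial ribosomal proteins, which build a separate ribosome, 4 were called lower and 0 higher, against 6.86% and 11% of all genes. The log2FC was below 0 for 67 of the 77 (87.0%), against 47.7% of all genes, with a median of -0.54. For 59.7% of them both MT libraries lay below both MB libraries, against 29.2% of all genes. The 4 called genes were Mrps6, Mrpl12, Mrps35 and Mrps27. All 78 listed genes of the mitochondrial ribosome together took 0.599% ± 0.0401 (SD, n = 2) of counts in MB and 0.448% in both MT libraries.

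Among 16 tested regulators of ribosomal protein synthesis, 2 were called lower and 0 higher, against 6.86% and 11% of all genes. In so short a list, 2 calls do not set the regulators apart from all genes. Myc, a transcription factor that drives ribosome production, stood at 245 and 189 CPM in MB and at 33.1 and 24.3 CPM in MT (log2FC -2.92 ± 0.48, SE, edgeR adjusted p = 0.0028). Eif4ebp2, a repressor of cap-dependent translation, had a log2FC of -3.29 ± 0.93 (SE), with 42.6 and 5.91 CPM in MB and 1.41 and 3.94 CPM in MT. Larp1, which binds the oligopyrimidine motif, had -1.11 ± 0.49 (SE) and was not called.

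Rpl3l was counted in MT and GAS and not in MB. Rpl3 lies on chromosome 15 (chr15:80077791-80091868, minus strand) and Rpl3l on chromosome 17 (chr17:24727820-24736143, plus strand) of mm10. Rpl3l had 7536, 8354 and 7316 counts in GAS, 31 and 6 in MT, and 0 in both MB and both lactate-treated MB libraries. Rpl3 had 759, 812 and 769 counts in GAS, 3181 and 4396 in MT, 18710 and 8599 in MB and 12982 and 5379 in lactate-treated MB. Adult muscle thus held mostly Rpl3l, and the cultured cells almost only Rpl3.

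Per kilobase of mRNA, Rpl3l made up 90.7%, 91.0% and 90.3% of Rpl3 and Rpl3l together in GAS, or 90.7% ± 0.332 (SD, n = 3). In MT it made up 0.948% and 0.134%. As a share of counts, these values were 0.965% (95% exact Clopper-Pearson interval 0.657 to 1.37) and 0.136% (0.050 to 0.296), and the intervals cover counting error only and do not overlap. In MB, where the count was 0, a limit of 3 counts corresponds to a share of 0.0160% and 0.0349%, and the upper ends of the exact 95% interval were 0.0197% and 0.0429%. Against this limit of 3 counts per library, the mean of 1.54 CPM in MT was at least 4.21-fold higher than in MB, and the bound was 6.33-fold for MT replicate 1 alone and 2.09-fold for MT replicate 2 alone. The exact permutation test gave p = 0.333, the smallest possible. With so few counts, Rpl3l was filtered out before the test over all genes.

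The Rpl3l counts in MT came mainly from replicate 1. This library also had the most counts on markers of other cells among the cultured libraries, most of them on Dcn. It also held 17 counts of Rpl10l, a testis paralogue of Rpl10 that had 0 in every other library. No member of the marker list was at 0 in GAS. Their part in the Rpl3l value was not tested. Rpl3l shares none of its 50-base stretches with transcripts of other genes, while Rpl3 shares 85.6% of them with transcripts of 26 other genes.

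Rpl3 and Rpl3l filled different places in the order of levels. On the RPKM scale, CPM divided by the length of the mRNA in kilobases, which allows levels of different genes to be compared, Rpl3l was at 287 ± 17.6 in GAS (SD, n = 3), rank 28 of 84 and 1.22 times the median of the 81 tested genes, and Rpl3 at 29.5 ± 0.954, rank 80 and 0.125 times the median. Together they reached 317 ± 18.4 RPKM, beside a median of 236 for the group. In MB, Rpl3 alone was at 1232 ± 658 RPKM (SD, n = 2), 1.28 times the median, and in MT at 295 ± 169 RPKM, 0.955 times the median.

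A pair of elongation factors was also divided between GAS and culture. Eef1a2, the form of elongation factor 1A used in adult muscle and neurons, made up 82.8% ± 0.999 of the pair Eef1a1 and Eef1a2 per kilobase in GAS (SD, n = 3). It had 24 counts in MT replicate 1 and 0 in the 5 other cultured libraries. Both muscle forms were thus the main form in GAS and a trace in MT replicate 1, and in MT replicate 2 Rpl3l had counts and Eef1a2 had 0.

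**Figure D4:**
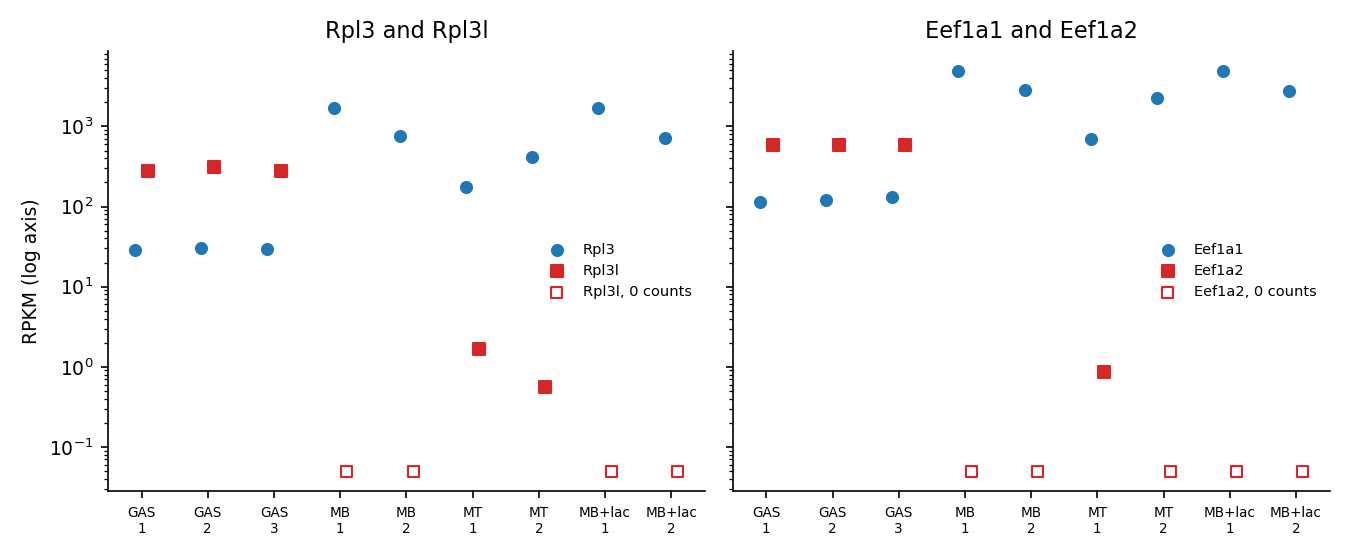
RPKM on a log axis in each library for Rpl3 and Rpl3l (left) and for Eef1a1 and Eef1a2 (right), with open squares near the bottom, placed at no measured value, for libraries with 0 counts. The muscle forms lie above the general forms in the 3 GAS libraries, and Rpl3 and Eef1a1 lie above them in every cultured library.

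Rpl7l1, Rpl22l1, Rpl36al, Rps27l and Rps27rt were counted beside their partners in every group. Rpl7l1, a protein related to Rpl7, made up 20.5% ± 0.0557 of the pair per kilobase in MB, 22.7% ± 4.13 in MT (SD, n = 2 each) and 8.10% ± 0.278 in GAS (SD, n = 3). Rpl22l1 made up 28.7% ± 9.87 of its pair with Rpl22 in MB, 33.9% ± 6.65 in MT and 16.3% ± 0.178 in GAS. Both had lower shares in every GAS library than in any cultured library, although 28.8% of the Rpl22l1 mRNA is overlapped by another annotated gene.

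Rpl36al reached a higher share in GAS, with 51.1% ± 2.14 of its pair with Rpl36a against 33.1% ± 2.51 in MB and 35.8% ± 0.279 in MT, although 63.1% of its mRNA is overlapped by another annotated gene. Rps27l, a p53-responsive relative of Rps27, made up 37.9% ± 4.88 in MB, 30.1% ± 4.58 in MT and 26.4% ± 2.37 in GAS. Rps27rt made up 5.30% or less of its pair with Rps27 in the mean of each group. Rpl10l, and Rpl39l with 1 count in each of 2 GAS libraries and 0 elsewhere, were at or near 0 beside Rpl10 and Rpl39. Rps4x has no partner among the 85 genes, and its log2FC of MT over MB was -1.84 ± 0.63 (SE).

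The levels of the single genes spread over a wide range within a group. Over the 81 genes tested, the highest mean RPKM was 122 times the lowest in MB, 84.6 times in MT and 32.4 times in GAS. The lowest in each was Rps27rt, and without it these ratios were 43, 40.9 and 31.5. The next lowest was Rpl23a in MB and MT, with 55.4% of its mRNA overlapped by exons of Tlcd1, and Rpl7l1 in GAS. Of the 81 genes, 62, 55 and 69 lay within 2-fold of the median in MB, MT and GAS. The median was 960 RPKM in MB, 308 in MT and 236 in GAS. The median coefficient of variation of a gene between replicates was 29.3% in MB, 55.4% in MT and 3.71% in GAS. It includes shifts that the genes of a library share, so it does not show how firm the order of levels is.

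In MB the highest levels were those of Rpl41 (5294 ± 2056 RPKM), Rplp1 (3310 ± 1675), Rplp0 (3149 ± 1103), Rpl32 (2550 ± 747) and Rpl13 (2463 ± 923, SD, n = 2 each). The SDs overlap for neighbours in this order. In MT they were those of Rpl41, Rps27, Rplp0, Rpl13 and Rpl32, from 1742 to 908 RPKM. In GAS they were those of Rplp1 (723 ± 35 RPKM), Rps2 (659 ± 40.0), Rpl41 (523 ± 18.5), Rplp0 (504 ± 29.1) and Rps29 (498 ± 116, SD, n = 3 each), where Rplp1 lay apart from Rpl41 by more than both SDs and Rpl41, Rplp0 and Rps29 did not differ beyond their spread.

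Across the 81 genes, log2 RPKM had a Pearson r of 0.692 between MB and GAS and of 0.926 between MB and MT. These values describe genes of the same libraries, and the protocol differs between GAS and the cultured cells. Rpl3 departed furthest toward low levels in GAS relative to MB, and without it r between MB and GAS was 0.759. Rpl23a departed the other way, with 380 ± 6.22 RPKM in GAS (rank 13 of 84) and 123 ± 45.3 in MB (rank 80 of 85), and exons of Tlcd1 overlap 55.4% of its mRNA. For Rpl24, with 2 to 7 counts in each cultured library, 71.5% of the mRNA is overlapped by the annotated gene Gm28037. Since the gene lists behind the GAS and the culture counts differ, such genes cannot be compared between them.

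**Figure D5:**
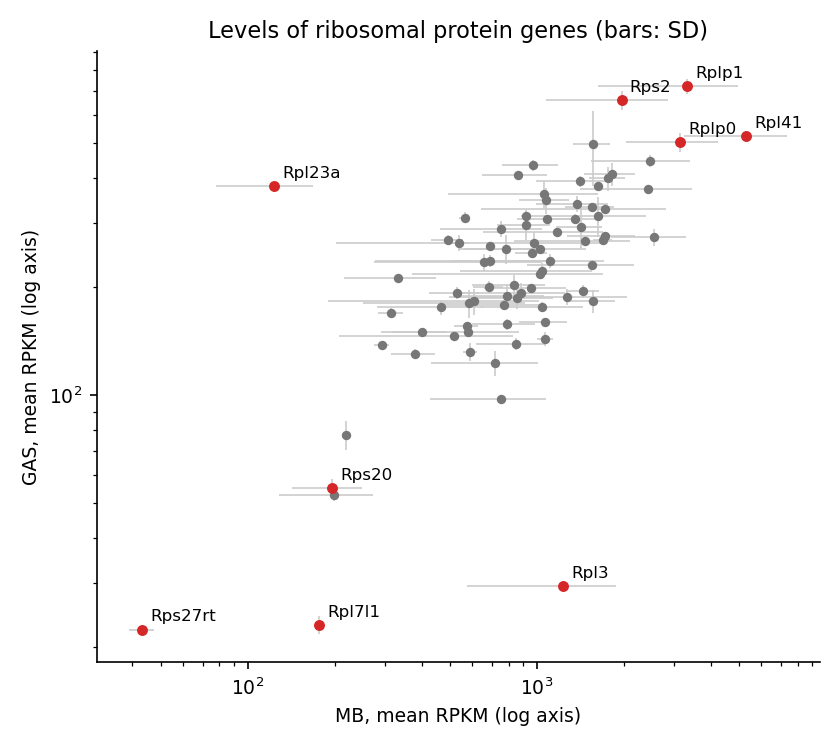
Mean RPKM of each gene in GAS (n = 3) against MB (n = 2), both axes logarithmic, with SD bars, for the genes above 1 RPKM in both. Rpl3l, with 0 counts in MB, is not drawn. Rpl3 lies at 29.5 RPKM in GAS, far below genes of like level in MB, Rpl23a lies to the left at 123 RPKM in MB, and Rplp1, Rps2, Rplp0 and Rpl41 are at the top.

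No ribosomal protein gene passed the test for a change under lactate. Of 81 genes tested, 0 were called by edgeR at an adjusted p under 0.05 and 0 at the nominal p under 0.01 with an absolute log2FC over 0.5, where the share over all 11804 genes tested was 0%. At an unadjusted p under 0.05, 0 were higher and 0 lower, against 0.0169% and 0.0254% of all genes. DESeq2 also called 0 and had 0 at this p. Over all genes the lowest p with edgeR was 0.024, so the 0 calls for these genes say little about lactate. At p under 0.01 and an absolute log2FC over 0.5 the study, also with edgeR, reported a small group of genes. The lowest p of any member was 0.270, for Rpl22l1. The median SE of a log2FC was 0.53, so that a change of this size in a single gene lay within its error.

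The direction depended on the libraries compared. The log2FC of lactate-treated over control MB was above 0 for 74 of the 81 genes, with a median of 0.15, against 49.5% of all genes and a median of -0.0034. Library by library, the median ratio was 0.42 for replicate 1 over replicate 1 and 0.97 for replicate 1 over replicate 2, but -0.80 for replicate 2 over replicate 1 and -0.15 for replicate 2 over replicate 2. Without MB replicate 1 the median was 0.57, without MB replicate 2 -0.05, without lactate-treated replicate 1 -0.51 and without lactate-treated replicate 2 0.61. Lactate-treated replicate 1, the highest library for this group of genes, is also the library with 15.6% of counts on ribosomal RNA genes and Gm26917, and with these genes left out the median stayed at 0.15.

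For 1 gene, Rpl7l1, both lactate-treated libraries lay above both controls, against 4.28% of all genes tested, and for 0 both lay below, against 6.84%. Rpl7l1 stood at 229 and 235 CPM in control MB and at 238 and 279 CPM with lactate (log2FC 0.13 ± 0.37, SE). The highest values were those of Rps14, at 1878 and 1019 CPM in control MB and 3669 and 849 CPM with lactate (log2FC 0.59 ± 0.75, SE), and Rpl22l1, at 82.5 and 138 CPM and 202 and 129 CPM (0.54 ± 0.45, SE). In both genes lactate-treated replicate 1 lay above and replicate 2 below the higher control. The lowest were those of Rps12, at 444 and 154 CPM and 383 and 136 CPM (-0.25 ± 0.68, SE), and Rpl3, at 2293 and 1036 CPM and 2281 and 956 CPM (-0.09 ± 0.63, SE).

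Other genes of translation gave values of the same size. The 14 other oligopyrimidine mRNAs had a median log2FC of 0.14 under lactate and the mitochondrial ribosomal proteins of 0.10, with 0 called in either. Rack1 had 0.20 ± 0.64 (SE), Fau 0.20 ± 0.53, Eef1a1 -0.04 ± 0.60 and Eef2 -0.15 ± 0.71. Rpl3l and Eef1a2 had 0 counts in all control and lactate-treated MB libraries.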

How the data were processed

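RNA was sequenced from GAS (poly(A) libraries) and from MB, MT and lactate-treated MB (Smart-seq2, which does not mark strand). Per the submitters' processing notes, the authors trimmed reads with Trim Galore 0.6.6, aligned them to mm10 with HISAT2 2.2.1 and counted them per gene with featureCounts (Subread 2.0.1), and the deposited values are raw counts. The annotation release, the strand setting and the handling of reads with several alignments are not given in the sources used here. Replicates are labelled biological. The labels do not say whether cultures came from separate animals, so p-values measure the spread between these libraries.

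Gene names, exons and transcripts came from GENCODE M21, starts from RefSeq. CPM used TMM factors, computed separately for GAS and cultured cells, and RPKM divided them by the shortest principal mRNA (Rps20 has a principal mRNA of 3706 bases, which understates it). MT and lactate-treated MB were each compared with MB by edgeR 4.0.16 (filterByExpr, quasi-likelihood test, Benjamini-Hochberg over all genes, R 4.3.3), with SE taken as the log2FC over the root of F. Calls needed an adjusted p under 0.05 and an absolute log2FC over 0.5. Alternatives were DESeq2 1.42.0, RLE factors, other filters, a block for the replicate number, one joint fit of the 6 cultured libraries, no ribosomal RNA genes and leaving out each library. The crossed block, all-exon lengths, the comparison of 50-base stretches with transcripts, the 25-base windows, the Rpl3l bound for each MT library and the range of levels without Rps27rt were chosen after seeing the data.

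The members and lists were chosen with earlier results of these data known. Named members are Rpl3, Rpl3l and other paralogues, the 5 highest levels per group, the 5 largest called changes, the 2 highest and 2 lowest changes where fewer were called, and the stalk, reference and fusion genes. For the lists, called genes (up to 5 a direction) and a few fixed genes are named. Rpl8, Rpl15, Rpl19, Rpl23a, Rpl24, Rpl35a, Rps10, Rps15, Rps18 and Rps20 were named after their values were seen. A few single-gene results are not reported here.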

Additional observations from a re-analysis of the deposited data

How the results depend on the processing

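The number of ribosomal protein genes called lower in MT (9, with 6.86% of all genes) was 50 with DESeq2 (10% of all genes), 49 with a crossed replicate block (6.71%), 21 without a filter on low counts (3.33%), 14 without ribosomal RNA genes and Gm26917 (7.09%), and 1 with all 6 cultured libraries in one fit (6.2%). It ranged from 0 to 50 when each library was left out (2.06% to 8.34% of all genes). The number called higher (0) ranged from 0 to 1. The 1 was Rpl3l without MT replicate 2, where it passed the count filter through a single MT library and MB gave all the spread. RLE factors gave 8 (6.79%) and at least 10 counts in every library gave 7 (6.37%). The cause was not tested. The median log2FC was between -2.28 and -1.11 in all of these. All 9 called genes were also called with DESeq2. The log2FC of Rpl35 turned to 0.0012 with at least 10 counts in every library and, leaving out libraries, ranged from -0.45 to 0.072. For lactate no alternative called a member, and leaving out libraries gave ranges of -0.76 to 1.27 for Rps14, -1.12 to 0.81 for Rps12 and -0.78 to 0.70 for Rpl3. The Rpl3l share in GAS was 95% per kilobase of all annotated exons. Libraries with the same replicate number share only that number. With a replicate block, 7 genes were called lower (6.38% of all genes), 4 of them among the 9, and the lactate median was 0.09. The deviations of same-numbered libraries had a correlation of -0.132 over genes for MT and MB and of 0.705 for lactate-treated and control MB. With 2 libraries a group, the median SE of a log2FC was 0.57 for MT and 0.53 for lactate, which limits what can be said of single genes.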
